A study of Mus musculus with 8 samples.

Results

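The TAM family consists of the receptor tyrosine kinases Tyro3, Axl and Mertk and of the secreted proteins Gas6 and protein S, the product of Pros1. The ligands bind phosphatidylserine on dying cells through a domain that depends on vitamin K, and at their other end they bind the receptors, so that a phagocyte takes hold of the dying cell and engulfs it. Gas6 activates all the TAM receptors, whereas protein S acts on Tyro3 and Mertk. The same receptors restrain cytokine and interferon signalling in myeloid cells, and in the brain Mertk and Axl are known from microglia. These 5 genes were taken by symbol from the 24924 genes of the count table, and all 5 were present and passed the filter on low counts in every fit.

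RNA was sequenced from microglia and T cells sorted from the brains of C57BL/6 mice of 20 to 22 months. There were 2 libraries in each of 4 groups: T cells of mice given interleukin-5 (IL-5) at 2 µg daily over 2 days, T cells of mice given phosphate-buffered saline (PBS), microglia after IL-5 and microglia after PBS. All groups share strain and age, and the surface markers of the sort and the number of mice behind a library are not given in the sources used here. The p-values therefore measure only the spread between these libraries, which may be technical. The family was chosen by the Axl values of the microglia libraries, where Axl was lower in both IL-5 libraries, so everything in the comparison of microglia after IL-5 and PBS is a description without a test.

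The libraries held 23536908 to 30423828 gene counts, and levels are counts per 1000000 gene counts (CPM). Fold changes are on the log2 scale from the count model of edgeR, with the trimmed mean of M-values (TMM) as the correction for RNA composition. A gene passed, or was called, at a Benjamini-Hochberg adjusted p under 0.05. Of the sort markers, 10 of microglia summed to 392 to 582 CPM in T cells and 11849 to 23970 CPM in microglia, and 10 of T cells to 3919 to 7047 CPM in T cells and 15.97 to 175 CPM in microglia. In T cells 72.8% to 76.9% of the microglia sum came from Sparc, which vessel cells also make, and P2ry12, a purinergic receptor that defines microglia, was at 0 to 2.21 CPM there. Transcripts of other brain cells were present in both populations, with choroid plexus markers at 59347 to 116571 CPM in T cells and 35994 to 64069 CPM in microglia. Markers of neutrophils reached only 26.7 CPM in T cells but summed to 13337 to 17311 CPM in microglia, near the level of the microglia markers themselves. Border macrophage markers summed to 12.1 to 39.1 CPM in T cells and to 203 to 344 CPM in microglia. Of the 7 genes, 2 were at 0 in all 4 T cell libraries. In T cells IL-5 replicate 1 and in both T cell PBS libraries 6 of them were at 0. Microglia IL-5 replicate 1 stood apart, with 25.5% of its counts outside genes against 15.2% to 16.99% in the other microglia libraries. Values without this library are given with the member results below that use it.

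Axl, the receptor on chromosome 7 (GRCm38, 25757273 to 25788705, minus strand), was the member that differed most between the microglia groups relative to its spread. It measured 11.8 and 21.9 CPM in IL-5 microglia, against 87.1 and 83.4 CPM in PBS microglia. The IL-5 mean was 19.8% of the PBS mean and the groups did not overlap. The log2 fold change was -2.23 (SE 0.48, n = 2 libraries per group), and it was -1.98 without microglia IL-5 replicate 1. In T cells Axl measured 0.268 and 11.4 CPM after IL-5 and 20.8 and 5.83 CPM after PBS, so that the groups overlapped. The value of 0.268 CPM in T cells IL-5 replicate 1 rests on 8 counts.

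Mertk, the receptor that phagocytes use for most engulfment of dying cells (chromosome 2, 128698956 to 128802894, plus strand), differed little between the microglia groups. It measured 99.9 and 108.9 CPM in IL-5 microglia and 123 and 96.7 CPM in PBS microglia, with overlapping groups and a log2 fold change of 0.083 (SE 0.39), or -0.04 without microglia IL-5 replicate 1. The T cell libraries held 17.5 and 24.5 CPM after IL-5 and 38.96 and 18.8 CPM after PBS. All 4 T cell values lay below all 4 microglia values. An antisense gene and a small nucleolar RNA gene lie within Mertk, and since no strand setting is given, reads from the antisense gene cannot be told apart from reads of Mertk.

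Tyro3, the receptor best known from neurons and oligodendrocytes (chromosome 2, 119797733 to 119818104, plus strand), was the scarcest member in both microglia groups. It measured 0.722 and 3.78 CPM in IL-5 microglia and 8.09 and 20.6 CPM in PBS microglia. The groups did not overlap, and the log2 fold change was -2.63 with a wide error (SE 1.27), or -1.94 without microglia IL-5 replicate 1. T cells held 6.496 and 20.2 CPM after IL-5 and 25.8 and 10.7 CPM after PBS, and these groups overlapped.

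Gas6, the ligand of all the receptors (chromosome 8, 13465374 to 13494490, minus strand), was low in microglia and high in T cells after IL-5. IL-5 microglia held 83.9 and 105.8 CPM and PBS microglia 169 and 186 CPM, a log2 fold change of -0.76 (SE 0.37), or -0.77 without microglia IL-5 replicate 1. The T cell libraries held 379 and 289.8 CPM after IL-5 and 219 and 198 CPM after PBS. In neither cell type did the groups overlap. The gene Tmem255b on the other strand shares 34 bases of exon with Gas6, and its own counts were 0 to 587 in a library where Gas6 had 1974 to 11321.

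Pros1, which encodes protein S, also a cofactor that limits blood clotting (chromosome 16, 62854307 to 62929346, plus strand), varied widely between microglia libraries. It measured 75.2 and 178 CPM in IL-5 microglia and 260.5 and 142 CPM in PBS microglia, with overlapping groups and a log2 fold change of -0.58 (SE 0.499), or -0.20 without microglia IL-5 replicate 1. The T cell libraries held 59.6 and 46.1 CPM after IL-5 and 34.5 and 38.5 CPM after PBS, without overlap. Every T cell value was below every microglia value.

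**Figure D1:**
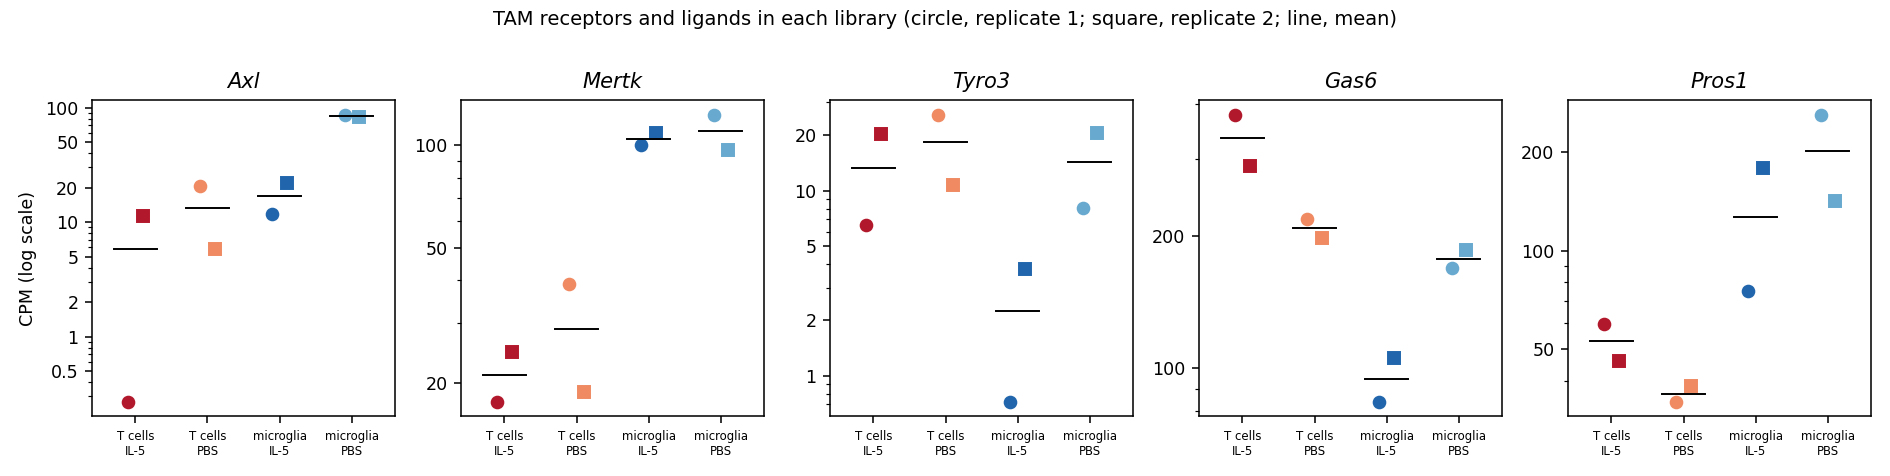
CPM of each TAM gene on a log axis for T cells after IL-5, T cells after PBS, microglia after IL-5 and microglia after PBS, with 1 point per library and a line at the mean of 2 libraries. Axl lies at 11.8 and 21.9 CPM in IL-5 microglia and at 87.1 and 83.4 CPM in PBS microglia, while the Mertk points of these groups overlap.

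In all, 3 of the 5 members had both IL-5 microglia libraries below both PBS libraries in CPM, and 0 had them above, where 23.1% of the 13764 genes tested lay below and 15% above. These shares belong to the contrast by which the group was chosen, and nothing is read from them. By edgeR 0% of the genes tested passed in this contrast. At an unadjusted p under 0.05 it counted 246 genes as higher and 371 as lower, and DESeq2 called 0.487%.

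Markers of microglia and of other cells also differed between the microglia groups. The 10 microglia markers summed to 11849 and 18650 CPM in IL-5 libraries and 23970 and 23808 CPM in PBS libraries. Set against these markers, a scaling chosen after the data were seen, Axl had 0.997 and 1.18 counts per 1000 marker counts after IL-5 and 3.63 and 3.50 after PBS, a log2 fold change of -1.72 without overlap. On that scale Mertk stood at 0.63 with both IL-5 libraries above, Tyro3 at -2.19, Gas6 at -0.22 and Pros1 at -0.081. The summed markers of mural cells and fibroblasts, none at 0, had the same order as Axl, at 98.2 and 158 CPM in IL-5 microglia and 332 and 355 CPM in PBS microglia. Much of that sum was Vtn, at 33.5 and 92.2 CPM after IL-5 and 270 and 222 CPM after PBS. Pdgfrb was also lower in both IL-5 libraries, while Rgs5 overlapped, at 24.4 and 39.1 CPM after IL-5 and 24.2 and 76.2 CPM after PBS. The sum for border macrophages ran the other way from Axl, at 344 and 266 CPM after IL-5 and 262 and 203 CPM after PBS. Its genes were divided. Ms4a7 was higher in both IL-5 libraries, Mrc1, Cd163 and F13a1 were lower in both, and Pf4, Cbr2 and Lyve1 overlapped. The part of these cells in the Axl values was not tested. Oligodendrocyte markers summed to 224 and 486 CPM in IL-5 microglia and 680 and 826 CPM in PBS microglia, in the same order as Tyro3. Tyro3 per 1000 oligodendrocyte marker counts was 3.23 and 7.77 after IL-5 and 11.9 and 24.96 after PBS. The choroid plexus sum ran the other way from Gas6, at 60215 and 64069 CPM after IL-5 and 43290 and 35994 CPM after PBS. The gene Ttr made up 92.2% to 93.1% of this sum. Of the rest, Enpp2, Kl and Prlr were higher in both IL-5 libraries, while Folr1, Kcnj13, Clic6 and Otx2 overlapped. In bulk RNA, fewer cells of a type and less RNA per cell cannot be told apart.

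Levels were compared between genes per kilobase of exon, with the union of all annotated exons as the length. In PBS microglia Gas6 led with a mean of 69.6 CPM per kilobase, followed by Pros1 at 49.2, Mertk at 25.4, Axl at 16.9 and Tyro3 at 2.32 (SD 4.62, 20.5, 4.32, 0.520 and 1.43, n = 2). Gas6 and Pros1 did not overlap, but their means lay no further apart than 1 SD of Pros1. In IL-5 microglia the order of the means was the same, with Gas6 at 37.2, Pros1 at 31.01, Mertk at 24.1, Axl at 3.35 and Tyro3 at 0.363 CPM per kilobase, and the range of Pros1 overlapped those of Gas6 and Mertk. There Pros1 came before Gas6 in replicate 2 (43.6 against 41.5) and in the means with the longest transcript as length (38.4 against 37.2). In T cells Gas6 stood far above the others, at 131 CPM per kilobase after IL-5 and 81.8 after PBS, and Pros1 followed at 12.9 after IL-5 and 8.94 after PBS. Mertk had 4.85 CPM per kilobase after IL-5 and 6.66 after PBS, where it overlapped Pros1. The means of Axl and Tyro3 in T cells lay between 1.16 and 2.94 CPM per kilobase, with overlapping ranges.

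The receptor make-up of each library does not depend on how libraries are scaled. Axl supplied 9.20% and 14.5% of the summed receptor level per kilobase in IL-5 microglia, against 36.8% and 39.3% in PBS microglia. Mertk supplied 90.3% and 83.5% after IL-5 and 60.4% and 52.9% after PBS. Per kilobase the ratio of Axl to Mertk was 0.102 and 0.173 in IL-5 microglia and 0.609 and 0.743 in PBS microglia, which restates the Axl values by which the family was chosen. In T cells Mertk was also the largest receptor, at 78.6% and 50.6% after IL-5 and 51.97% and 60.03% after PBS. Tyro3 supplied 20.4% to 29.1% of the receptor level in T cells and 0.457% to 7.88% in microglia. Summed oligodendrocyte markers were also higher in T cells, at 5.97 times the microglia CPM in IL-5 mice and 2.83 times in PBS mice. The CPM ratio for Tyro3 was 5.92 in IL-5 mice and 1.27 in PBS mice. Such ratios depend on the scaling. With TMM the Tyro3 log2 fold change of T cells over microglia was 1.82 (SE 1.34) in IL-5 mice and -0.35 (SE 1.30) in PBS mice. Within T cells the order differed. Tyro3 measured 6.496 and 20.2 CPM after IL-5 and 25.8 and 10.7 CPM after PBS. The oligodendrocyte sums of these libraries were 2107 and 2135 CPM after IL-5 and 1636 and 2620 CPM after PBS. The highest Tyro3 value thus stood with the lowest sum. The part of oligodendrocytes in the Tyro3 values was not tested.

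**Figure D2:**
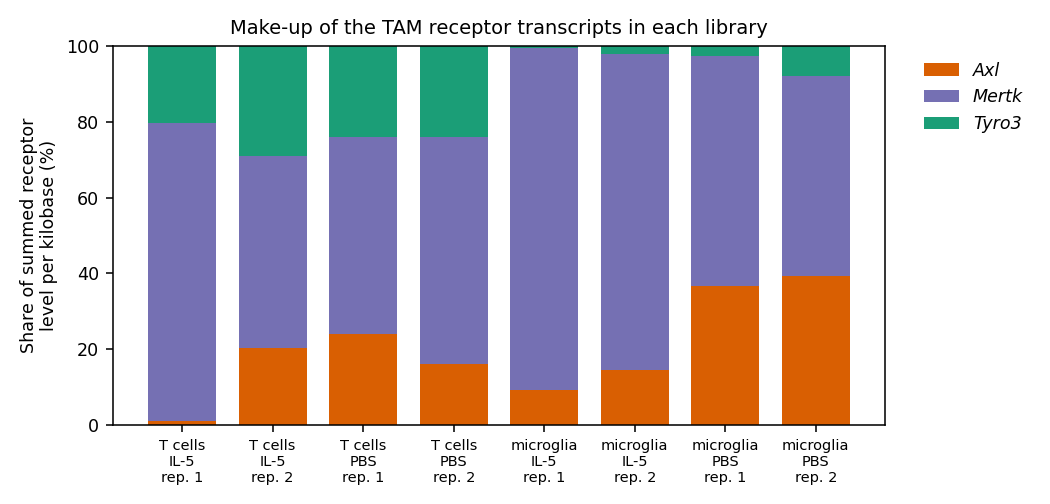
Stacked bars of the share of Axl, Mertk and Tyro3 in the summed receptor level per kilobase, in percent, for each of 8 libraries. The Axl part is 9.20% and 14.5% in IL-5 microglia and 36.8% and 39.3% in PBS microglia, and the Tyro3 part is 20.4% or more in every T cell library.

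Ligand and receptor levels stood in a different proportion in the sorted populations. The summed ligands per kilobase exceeded the summed receptors by 31.7 and 11.2 times in IL-5 T cells and by 5.46 and 12.1 times in PBS T cells, and by 2.01 and 2.83 times in IL-5 microglia and 2.77 and 2.55 times in PBS microglia. The ratio of Gas6 to Pros1 per kilobase was 8.24 to 10.2 in T cells and 0.952 to 2.10 in microglia, where Pros1 was the higher in microglia IL-5 replicate 2. Every T cell library thus lay above every microglia library in both ratios.

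T cells after IL-5 were compared with T cells after PBS, libraries the choice of genes did not use. By edgeR 0 of 5 members passed, where 0% of 13897 genes passed. The unadjusted p was under 0.05 for 355 genes that were higher and 245 that were lower. Gas6 was the member with the smallest p, with a log2 fold change of 0.73 (SE 0.23, edgeR adjusted p = 0.99992, unadjusted p = 0.0211, higher in 2 of 2 libraries). DESeq2 called Gas6 alone among the members (adjusted p = 0.0286), where it called 4.73% of all genes. For Pros1 the log2 fold change was 0.58 (SE 0.47). In CPM 2 of the 5 members, Gas6 and Pros1, had their IL-5 values above both PBS values, and 0 had them below, where the shares among all genes were 16.6% above and 19% below. Axl at -1.16 (SE 1.99), Mertk at -0.41 (SE 0.74) and Tyro3 at -0.41 (SE 1.11) had errors larger than their values.

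Choroid plexus markers moved with Gas6 in the T cell libraries. The 8 markers, none at 0 in any library, summed to 113695 and 116571 CPM after IL-5 and 84471 and 59347 CPM after PBS. Ttr made up 76.0% to 79.1% of the sum in T cells. Per 1000 choroid plexus marker counts, a scaling chosen after the data were seen, Gas6 had 3.33 and 2.49 counts after IL-5 and 2.59 and 3.33 counts after PBS, with a log2 fold change of -0.027. The summed border macrophage markers, at most 39.1 CPM in T cells, were also higher in both IL-5 libraries. That sum was Cbr2 alone in IL-5 replicate 1 and PBS replicate 1, and Pf4 alone in PBS replicate 2. B cell markers summed to 445 and 335 CPM after IL-5 and 254 and 139 CPM after PBS. Of these Jchain had 188 and 136 CPM after IL-5 and 0 and 7.23 CPM after PBS, while Cd79a and Cd79b overlapped. The part of choroid plexus cells, border macrophages and B cells in the Gas6 and Pros1 values was not tested. Endothelial markers were at 1962 and 1048 CPM after IL-5 and 1394 and 1581 CPM after PBS, with overlap. T cell markers summed to 3919 and 5093 CPM after IL-5 and 6266 and 7047 CPM after PBS. Without T cells IL-5 replicate 1, which held 13490 genes with a count against 15330 in replicate 2, the Gas6 log2 fold change was 0.51.

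**Figure D3:**
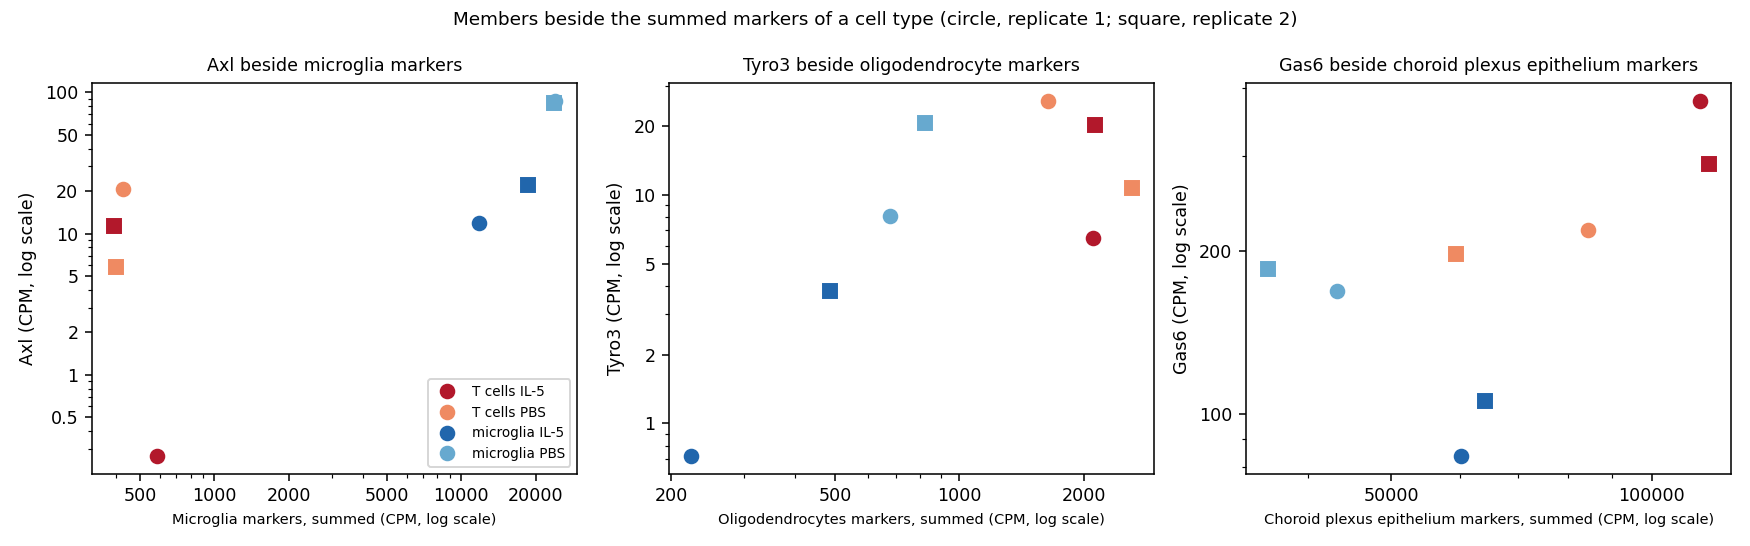
CPM of Axl, Tyro3 and Gas6 against the summed CPM of microglia, oligodendrocyte and choroid plexus epithelium markers, both axes logarithmic, with 1 point per library of the 4 groups. In T cells Gas6 and the choroid plexus sum are both highest after IL-5, whereas in microglia the choroid plexus sum is higher and Gas6 lower after IL-5.

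The sorted populations were then set against each other within each treatment, in one fit of all 8 libraries. Mertk and Pros1 were lower in T cells in both treatments. In PBS mice the log2 fold change of Mertk was -2.63 (SE 0.48, edgeR adjusted p = 0.0133) and that of Pros1 -3.16 (SE 0.48, edgeR adjusted p = 0.00542). In IL-5 mice Mertk stood at -3.16 (SE 0.496, edgeR adjusted p = 0.00718) and Pros1 at -2.03 (SE 0.46, edgeR adjusted p = 0.0296). So 2 of the 4 members other than Axl passed as lower in each treatment and 0 as higher. Among 15397 genes tested in PBS mice 4.6% passed as lower and 2.57% as higher, or 7.18% in all. In IL-5 mice the shares were 5.73%, 2.49% and 8.22%. By DESeq2 Mertk and Pros1 were called in both treatments, where it called 19.5% of genes in PBS mice and 19.2% in IL-5 mice. In CPM Mertk and Pros1 lay below all microglia values of the same treatment in both PBS mice, where 19.7% of genes did, and IL-5 mice, where 14.5% did. Axl lay below as well, which is given as description only. Gas6 lay above in both treatments and Tyro3 in IL-5 mice, where 42.2% of genes lay above in PBS mice and 43.8% in IL-5 mice. The calls in IL-5 mice were lost without T cells IL-5 replicate 1, with adjusted p = 0.0567 for Mertk and 0.118 for Pros1 in edgeR. The Mertk call in PBS mice was lost without microglia PBS replicate 1 (edgeR adjusted p = 0.0632), without T cells PBS replicate 2 (0.0751) and with scaling by library size only (0.0518). The Pros1 call in IL-5 mice was lost without T cells IL-5 replicate 2 (edgeR adjusted p = 0.148), with library size only (0.159) and with only the 4 libraries compared (0.126).

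Mertk and Pros1 were present in T cell libraries in which markers that define microglia were near 0. In PBS mice T cells had 26.2% of the Mertk CPM of microglia and 18.2% of the Pros1 CPM, whereas the summed microglia markers stood at 1.73% and the border macrophage markers at 5.48%. In IL-5 mice the shares were 20.2% for Mertk, 41.7% for Pros1, 3.195% for the microglia markers and 11.2% for the border macrophage markers. The border macrophage sum came from 1 gene in each PBS T cell library and in T cells IL-5 replicate 1. Markers of several other cells were higher in T cells than in microglia. In PBS mice they stood at 118% for mural cells and fibroblasts, 148% for endothelial cells, 162% for astrocytes and 283% for oligodendrocytes. Others were lower in T cells, at 59.9% for B cells, 38.9% for dendritic cells and 0.085% for neutrophils. Which cells of the sort carried Mertk and Pros1 was not tested.

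Gas6 and Tyro3 did not pass in either treatment. Gas6 had 208 CPM in T cells and 177 CPM in microglia on average in PBS mice, with a log2 fold change of -0.46 (SE 0.32, edgeR adjusted p = 0.425) that turned to 0.23 with library size only. In IL-5 mice its mean was 334 CPM in T cells and 94.8 CPM in microglia, with a log2 fold change of 0.99 (SE 0.32, edgeR adjusted p = 0.0972, or 0.0152 with library size only). Tyro3 had -0.35 (SE 1.30) in PBS mice and 1.82 (SE 1.34) in IL-5 mice. Without microglia IL-5 replicate 1 the values in IL-5 mice were -3.08 for Mertk, -2.46 for Pros1, 0.95 for Gas6, 1.1035 for Tyro3 and -2.63 for Axl. Tyro3 was also 3.08 without microglia IL-5 replicate 2 and 0.83 without T cells IL-5 replicate 2. The Axl values rest on the microglia libraries by which the genes were chosen and are given with no test, at -3.38 (SE 1.32) in PBS mice and -2.36 (SE 1.27) in IL-5 mice. The IL-5 value was -1.39 without T cells IL-5 replicate 1 and -6.71 without T cells IL-5 replicate 2.

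The scaling matters for these comparisons, since TMM factors were 1.27 to 1.32 in T cells and 0.638 to 0.8195 in microglia. With library size only, the median log2 fold change of all genes was 0.75 in PBS mice and 1.007 in IL-5 mice, against 0.056 and 0.19 with TMM. The split of calls then turned to 919 higher and 376 lower in PBS mice, where TMM gave 396 and 709, and to 958 and 336 in IL-5 mice, where TMM gave 383 and 883. Mertk and Pros1 were below 0 under both scalings.

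**Figure D4:**
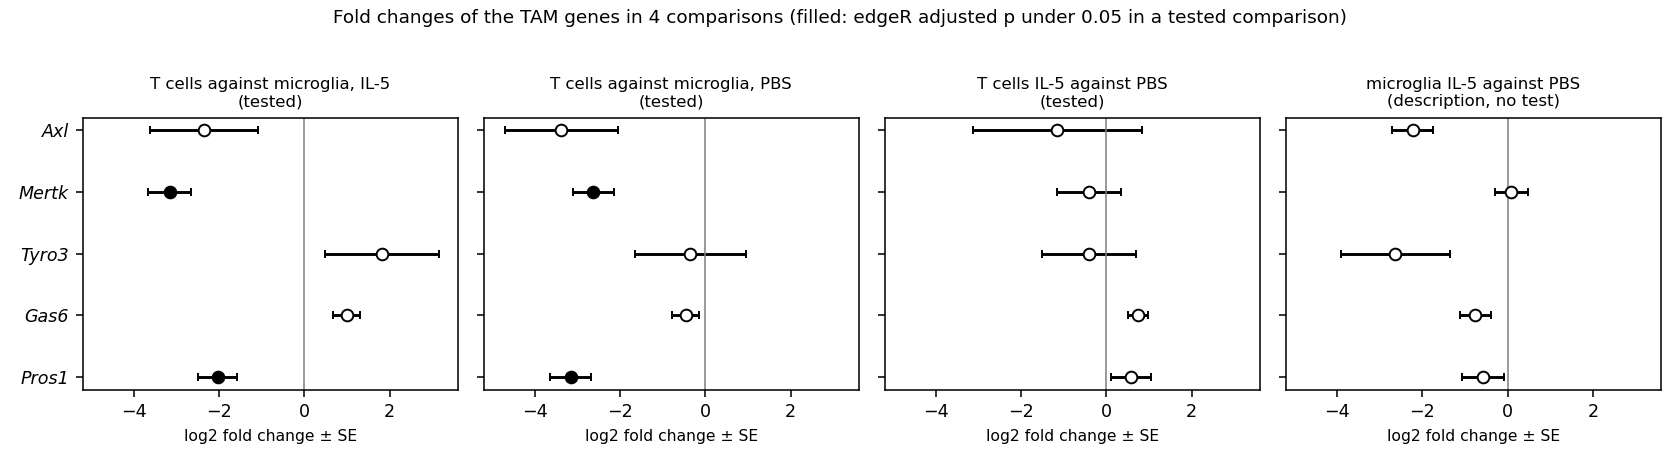
Log2 fold change with its standard error for each member in 4 comparisons, T cells over microglia in IL-5 and PBS mice, IL-5 over PBS in T cells and IL-5 over PBS in microglia, n = 2 libraries per group. Filled points passed the edgeR test in a tested comparison, namely Mertk and Pros1 in T cells against microglia, and Axl was not tested there.

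The genes whose profile over the 8 libraries was nearest to that of each member were found by the root mean square (RMS) difference of centred log2 CPM among 11470 genes with a mean of at least 5 CPM. This is a description over libraries that share their sort and treatment. Gas6 had the closest neighbours, Tdp2 at 0.17, Ssu72 at 0.197 and Trim27 at 0.21. Mertk was nearest to Erp29 at 0.22, Itm2c at 0.22 and Pip4p1 at 0.27, and Pros1 to Rps4l at 0.24, Ninj1 at 0.27 and Tmem176b at 0.28. Tyro3 lay 0.40 from Csnk1g2, 0.53 from Hspb6 and 0.56 from Shoc2. Axl had the most distant ones, Pxdc1 at 0.65, Cerk at 0.74 and Npnt at 0.76. Among the members, Mertk and Pros1 had the most similar profiles with an RMS difference of 0.66, and Axl and Gas6 the least similar with 2.77.

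The wider pathway was described with 86 genes in 7 lists, of which 85 were in the table analysed. In T cells after IL-5 against PBS, 0 of 77 passed in edgeR and 1 had an unadjusted p under 0.05, while DESeq2 called 1 higher and 2 lower, where it called 4.73% of all genes. Among these were Cd300a, an inhibitory phosphatidylserine receptor, as higher and C1qb as lower, named after their values were seen. The median over the 77 was 0.075, against -0.012 for all genes.

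In T cells against microglia, 3 of 81 pathway genes passed as higher and 12 as lower in PBS mice, where 2.57% of all genes were higher and 4.6% lower. In IL-5 mice 2 passed as higher and 11 as lower, where the shares of all genes were 2.49% and 5.73%. Of the 27 tested receptors and bridging proteins for dying cells, 8 were lower in each treatment and 0 higher. Among them Sirpa, the receptor for the signal that restrains engulfment, had 12.8 and 16.2 CPM in PBS T cells and 829.9 and 987 CPM in PBS microglia (log2 fold change -6.66, SE 0.54, edgeR adjusted p = 0.000391). Tyrobp, the adaptor of Trem2, had 11.8 and 15.9 CPM in PBS T cells and 5107 and 4482 CPM in PBS microglia. C1qa and C1qb, chains of the complement protein that tags debris, had log2 fold changes of -11.26 and -11.92 in PBS mice, both past the test. The median of this list was -3.79 in PBS mice and -2.42 in IL-5 mice.

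Of the vitamin K genes 1 of 3 was lower in each treatment and 0 higher. It was Vkorc1, which recycles the vitamin K needed to make active Gas6 and protein S. It had 54.9 and 87.5 CPM in PBS T cells and 301 and 266 CPM in PBS microglia (-2.69 on the log2 scale, SE 0.58, edgeR adjusted p = 0.0242). It was lower in IL-5 mice as well (-3.85, SE 0.61, edgeR adjusted p = 0.00724), where the microglia values were 796 CPM in replicate 1 and 293 CPM in replicate 2. Of 14 signalling and feedback genes, 2 were higher and 2 lower in PBS mice and 1 and 1 in IL-5 mice, and of 17 engulfment genes 1 and 1 in PBS mice and 1 and 0 in IL-5 mice. Socs3, a brake on cytokine signalling that TAM receptors induce, had 23.7 and 47.1 CPM in PBS T cells and 300.0 and 268 CPM in PBS microglia (-3.70, SE 0.54, edgeR adjusted p = 0.0043), and it did not pass in IL-5 mice (-1.78, edgeR adjusted p = 0.0615). Of the genes higher in T cells in PBS mice, Ptk2, the focal adhesion kinase, stood at 4.02 (SE 1.02, edgeR adjusted p = 0.0458), against 1.02 in IL-5 mice, where it did not pass (edgeR adjusted p = 0.554). Dock2, an activator of Rac in lymphocytes, was higher by 3.24 (SE 0.69, edgeR adjusted p = 0.0233) in PBS mice. Rac1, the engulfment GTPase, was lower, at -1.66 (SE 0.38, edgeR adjusted p = 0.0325) in PBS mice, and did not pass in IL-5 mice (-1.34, edgeR adjusted p = 0.0625). The adaptor Grb2 was lower in both treatments (-1.37 and SE 0.35 in PBS mice, edgeR adjusted p = 0.0483).

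The lipid-sensing LXR, RXR and PPAR receptors and their targets had 1 of 9 genes lower in IL-5 mice and 0 in PBS mice. It was Abca1, the cholesterol exporter that is raised after engulfment, with 30.2 and 33.5 CPM in IL-5 T cells and 91.5 and 67.6 CPM in IL-5 microglia (log2 fold change -2.20, SE 0.48, edgeR adjusted p = 0.02598). Of the shedding proteases Adam10 and Adam17, and of 9 flippases and scramblases tested, 0 passed in either treatment in edgeR.

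Within microglia, 79 pathway genes were tested and 0 had an unadjusted p under 0.05 or a DESeq2 call, with a median log2 fold change of -0.29 against -0.023 for all genes, given as description. Socs3 measured 76.8 and 185 CPM in IL-5 microglia and 300.0 and 268 CPM in PBS microglia. Nr1h2, an LXR receptor, measured 26.4 and 58.9 CPM after IL-5 and 86.6 and 95.6 CPM after PBS. Higher in both IL-5 libraries were Abca1, at 91.5 and 67.6 CPM after IL-5 and 48.1 and 58.5 CPM after PBS, and Ptk2, at 6.42 and 17.4 CPM after IL-5 and 1.31 and 2.25 CPM after PBS. Ggcx, the carboxylase that makes the Gas6 and protein S domain functional, was at 4.38 and 3.27 CPM after IL-5 and 24.6 and 13.7 CPM after PBS. Vkorc1 was at 796 and 293 CPM after IL-5 and 301 and 266 CPM after PBS, so that without microglia IL-5 replicate 1 the remaining IL-5 value lay between those of PBS.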

How the data were processed

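The authors deposited 1 table of unscaled read counts for 8 libraries. Per the submitters' processing notes, STAR 2.5.3a, Cufflinks 2.0 and DESeq2 1.1 were used with mm10 and GRCm38, and the counting tool and strand setting are not given in the sources used here. The table's 2 summary entries were kept out of library sizes, reads outside genes taking 15.2% to 25.5% and ambiguous reads 1.39% to 1.77% of a column. A further 27 genes were left out for 53 cells that were not numbers, among them Xkr4 of the lists.

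The test was edgeR's quasi-likelihood F test (version 4.0.16 in R 4.3.3, with TMM, filterByExpr with a minimum count of 10, robust, two-sided, Benjamini-Hochberg over all genes tested, threshold 0.05). IL-5 was set against PBS in a fit of each cell type, and T cells against microglia in 1 fit of all 8 libraries. SE is the fold change over the root of F. Gene lengths and coordinates are from GENCODE M21, to which 97.9% of the genes matched by symbol. A count of 0 allows up to 3 counts, 0.0986 to 0.127 CPM, for counting error only.

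The members and lists were chosen with earlier results of these data known. Named were all members, the 3 most abundant genes per kilobase of each pathway list and those that passed a test (at most 4 a direction), 3 nearest profiles a member and the most abundant markers, the text giving those that bear on a member. The values of 1 pathway gene are not reported here. Alternatives were DESeq2 1.42.0, RLE size factors, scaling by library size, testing without a filter, a minimum of 5 CPM in 2 libraries, the replicate block, other libraries in the fit, each library left out and, for levels, the longest transcript. Scalings to marker lists were added after the data were seen. The steps were tested on simulated data. Plots used matplotlib 3.10.9 in Python 3.11.15.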

Additional observations from a re-analysis of the deposited data

Results flagged for a closer look

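Gas6 moved in opposite directions in the sorted populations. The log2 fold change of IL-5 over PBS was 0.73 in T cells, with both IL-5 libraries above both PBS libraries, and -0.76 in microglia, with both below. This difference between the cell types was not tested. The inhibitory phosphatidylserine receptor Cd300a showed the same opposite order, with fitted log2 fold changes of 6.26 in T cells and -0.89 in microglia, also not tested. In T cells it had 195 and 72 counts after IL-5 and 0 and 3 counts after PBS. Pooled within a group, the counts gave a ratio of 82.3 with a 95% exact counting interval of 27.8 to 401. That interval covers counting error only and leaves out the spread between libraries. The fitted value in T cells had a wide error (SE 3.27, edgeR unadjusted p = 0.105, adjusted p = 0.99992) and depends on the prior count. In microglia Cd300a measured 53.2 and 148 CPM after IL-5 and 204 and 189 CPM after PBS.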

How the results depend on the processing

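Counts of members called were 0 in T cells after IL-5 in edgeR under every alternative and 1 in DESeq2. In T cells against microglia they were 2 in PBS mice, 1 with library size only and 1 to 3 with a library left out. The count of 3 includes Axl. Axl rests on the microglia libraries by which the genes were chosen, so its part in that count is not read as a test result. The other 2 members in the count of 3 were Mertk and Pros1. In IL-5 mice they were 2, and 1 with only the 4 libraries compared. With library size only they were also 2, but these were Mertk and Gas6, since Pros1 was lost. The calls lost with a library left out are given above. The Pros1 call in PBS mice held under all 15 alternatives. Genes called numbered 0 in microglia (67 in DESeq2, 0 to 1255 with a library left out, the highest without microglia IL-5 replicate 2). In T cells they numbered 0 (658 in DESeq2, 2 without a filter, 2 with all 8 libraries in one fit, 0 to 1 with a library left out). For T cells against microglia they were 1105 in PBS mice (2831 in DESeq2, 1722 without a filter, 1666 with only the 4 libraries compared, 508 to 2028 with a library left out, the lowest without microglia PBS replicate 1 and the highest without microglia IL-5 replicate 2). In IL-5 mice they were 1266 (2847 in DESeq2, 217 with only the 4 libraries compared, 385 to 2209 with a library left out, the lowest without T cells IL-5 replicate 1 and the highest without microglia IL-5 replicate 2).

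The Axl log2 fold change in microglia ranged from -2.51 to -1.98 with a library left out and was -1.72 when scaled to the microglia markers. In T cells after IL-5, values ranged over leave-one-out fits from -5.57 to 0.054 for Axl, -0.85 to 0.22 for Mertk and -1.44 to 0.37 for Tyro3. The reversed ones were 0.054, 0.22 and 0.37 without T cells PBS replicate 1, and 0.17 for Tyro3 without T cells IL-5 replicate 1. Scaled to the T cell markers Mertk was 0.066, and scaled to the choroid plexus markers Gas6 was -0.027. In T cells against microglia in PBS mice, Tyro3 turned to 0.35 with library size only. Its leave-one-out values ran from -1.11 to 0.38, above 0 without replicate 2 of PBS microglia (0.38) or of PBS T cells (0.15). Gas6 turned to 0.23 with library size only. The cause was not tested.

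With the replicate number as a block, Tyro3 in that comparison was 0.056 and genes called were 933 in PBS mice and 975 in IL-5 mice, with 2 members called in each. Deviations of equally numbered libraries correlated at -0.002 to 0.016 over genes, so the numbers were not taken to pair libraries. The longest transcript as length moved Axl in PBS microglia to 19.99 CPM per kilobase and Pros1 to 16.003 in IL-5 T cells and 11.06 in PBS T cells, and put Pros1 (38.4) above Gas6 (37.2) in IL-5 microglia. Groups of 2 libraries limit every comparison.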
